A study of Mus musculus with 12 samples.

Results

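Oxidative phosphorylation in mitochondria is carried out by 5 protein complexes, and most of their subunits are encoded in the nucleus. The 86 genes described here are those nuclear subunit genes and a few assembly factors, out of 24421 gene symbols in the count table. They were chosen by name, as symbols beginning with Nduf, Uqcr, Cox4, Cox5, Cox6, Cox7, Cox8 or Atp5, together with Sdha, Sdhb, Sdhc, Sdhd, Cycs and Cyc1, without pseudogene symbols and with at least 120 counts over the 12 libraries. Of 94 symbols that matched by name, 8 fell below that count. The members comprise 35 subunits of complex I, 7 complex I assembly factors, 4 subunits of complex II, 9 of complex III, 13 of complex IV, 15 of complex V, the electron carrier Cycs, and Atp5s and Atp5sl, which carry the Atp5 symbol without being counted here as subunits of complex V.

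The libraries came from subcutaneous tumours of B16F10, a mouse melanoma line labelled highly metastatic (n = 7), and of B16F0, the poorly metastatic line (n = 5). Both were grown for 12 days in C57BL/6 hosts of the same genotype, Rpl22fl/flHA;Cdh5(PAC)-CreERT2, treated with tamoxifen. In these hosts Cre under the endothelial Cdh5 promoter adds an HA tag to ribosomes through Rpl22, and precipitation of the tag enriches mRNA that vessel cells translate. Tumour cells carry no tag. The labels do not tell whether each replicate was its own mouse, and p-values therefore cover only the spread among these 12 libraries.

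Complexes I, II, III and IV pass electrons from nutrients to oxygen and, apart from complex II, pump protons across the inner mitochondrial membrane. Complex V, the ATP synthase, uses the resulting gradient to make ATP. In mammals the subunit genes are scattered over the genome, and their promoters often hold sites for factors such as NRF1, GABP of the ETS family and YY1, with coactivators such as the product of Ppargc1a acting on them. Melanoma cells differ in how far they rely on this pathway, and endothelial cells are known to rely largely on glycolysis.

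The libraries are labelled as endothelial, yet they held much RNA of the pigment lineage. Dct, an enzyme of melanin synthesis, averaged 6221 ± 1703 CPM (read counts scaled to depth with TMM factors) in B16F10 and 7141 ± 1915 CPM in B16F0 (SD, n = 7 and n = 5). Pmel, a protein of pigment granules, averaged 811 ± 628 CPM in B16F10 and 1481 ± 783 CPM in B16F0. Cdh5 and Pecam1, both endothelial adhesion genes, averaged 262 ± 239 and 207 ± 187 CPM in B16F10 and 275 ± 276 and 232 ± 239 CPM in B16F0, and the mural cell gene Rgs5 averaged 23.0 ± 30.1 CPM in B16F10 and 6.52 ± 4.23 CPM in B16F0. Library totals ran from 5322510 to 20569186 counts. Each line was on lanes 1, 2 and 6, and Rn45s, a ribosomal RNA precursor, made up 31.4% of B16F10 replicate 5 and 8.91% of B16F0 replicate 5, and less elsewhere. Receptor genes of smell, pheromones and taste, taken as background reads, reached sums of 791 CPM (B16F10 replicate 1) and 657 CPM (B16F10 replicate 2), and lay between 9.63 and 299.9 CPM elsewhere. In such mixed samples, fewer cells of a type and less RNA per cell cannot be told apart. Nor can the counts of a member be assigned to tagged vessel cells or to cells without the tag.

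Together the 86 members took 0.388% to 1.21% of counts in B16F10 libraries and 0.484% to 1.12% in B16F0 libraries. The lowest shares were those of the Rn45s-rich libraries, replicate 5 of each line. Of counts other than Rn45s, the members took 0.5655% to 1.21% in B16F10 and 0.5111% to 1.125% in B16F0. The summed level of the members was 5415, 5187, 12180, 6087, 5114, 6541 and 6822 CPM in B16F10 replicates 1 to 7 and 8903, 11160, 5936, 4998 and 5456 CPM in B16F0 replicates 1 to 5. The lines overlapped, and the highest library was 2.44-fold above the lowest. The highest libraries were B16F10 replicate 3 and B16F0 replicate 2, which share lane 1 and the prefix of their library names, followed by B16F0 replicate 1. In B16F10 replicate 3, 84 of the 86 members lay above their own mean over the 12 libraries, as did 72 in B16F0 replicate 2, against 17 in B16F10 replicate 1 and 18 in B16F0 replicate 4.

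**Figure D1:**
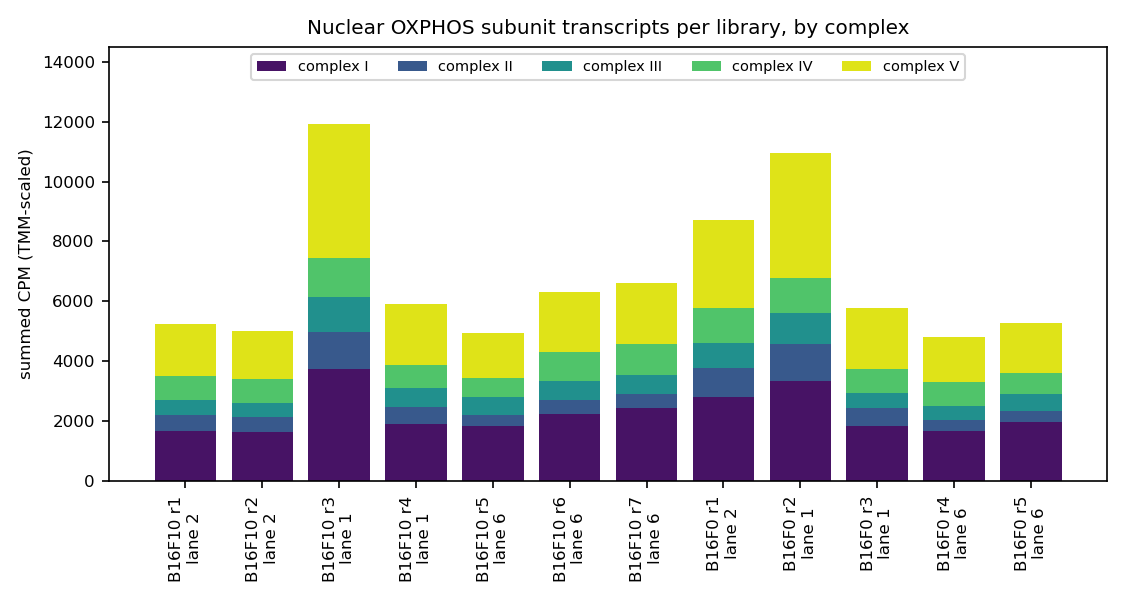
Summed level of the subunits of each complex (TMM-scaled CPM, stacked bars) in the 7 B16F10 libraries and the 5 B16F0 libraries, with the lane under each name. B16F10 replicate 3 (12180 CPM over all 86 members) and B16F0 replicate 2 (11160 CPM) are the tallest bars of their lines.

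Levels per kilobase of exon differed widely between subunits of the same complex. Exon length here is the union of all annotated exons of a gene, which can far exceed a single transcript. It was 6443 bases for Atp5l, 4237 for Atp5b and 1756 for Atp5e, where the longest coding transcripts have 544, 1916 and 421 bases. The order within a complex therefore depends on the length used and holds for this one only. In complex V the highest was Atp5a1, which encodes the alpha subunit of the catalytic F1 head, at 187 CPM per kilobase in B16F10 and 207 CPM per kilobase in B16F0. The lowest was Atp5l, the g subunit of the membrane part, at 0.154 in B16F10 and 0.172 in B16F0 on the same scale. In complex I the accessory subunit gene Ndufb9 was highest (130 CPM per kilobase in B16F10 and 135 in B16F0), and Ndufab1, the mitochondrial acyl carrier protein, lowest (0.561 in B16F10 and 0.580 in B16F0). Among assembly factors Ndufaf5 stood at 17.9 CPM per kilobase in B16F10 and 19.7 in B16F0, and Ndufaf3 at 2.23 in B16F10 and 2.39 in B16F0. In complex II the membrane anchor Sdhd was highest (108 in B16F10 and 116 in B16F0) and the other anchor, Sdhc, lowest (23.7 in B16F10 and 24.7 in B16F0). In complex III Uqcrh, the hinge protein, was highest (125 in B16F10 and 126 in B16F0) and Uqcrb lowest (17.2 in B16F10 and 22.6 in B16F0). In complex IV Cox7b was highest (167 in B16F10 and 172 in B16F0) and Ndufa4l2 lowest (1.24 in B16F10 and 0.608 in B16F0).

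Several low members have near-identical copies in the genome. Of 85 members with a coding transcript in the GENCODE annotation, 35 shared at least 1 stretch of 50 bases with an annotated pseudogene and 17 shared such stretches with 2 or more. Of the 6 members with fewer than 500 counts (Atp5g2, Ndufa4l2, Atp5l, Atp5g1, Ndufb4 and Cox7c), 5 shared stretches with 2 or more pseudogenes, against 12 of the other 79. In Atp5l, 84.8% of the stretches of 50 bases also occurred in other genes, among them 12 pseudogenes. In Atp5o the share was 89.8%, and 13.5% of its stretches occurred in pseudogenes. The annotation entry used for Atp5o has 530 exon bases, fewer than the 639 bases of its annotated coding sequence. Its share may therefore include stretches of another entry of Atp5o itself, which was not tested. The counts of Atp5l are uncertain, and the share cannot tell how far those of Atp5o are. Cycs shared stretches with 10 pseudogenes and Ndufa4l2 with none. The part of such copies in the low values was not tested.

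Where a complex IV subunit has alternative forms, the broadly expressed one carried nearly all counts. Cox4i1 averaged 185 ± 51.4 CPM in B16F10 and 183 ± 53.1 CPM in B16F0, while Cox4i2, the form known from lung and from oxygen-sensing cells, averaged 0.851 ± 0.586 CPM in B16F10 and 0.347 ± 0.0900 CPM in B16F0 (SD, n = 7 and n = 5, as for all levels of the 2 lines). Of the heart and skeletal muscle forms, Cox6a2 was at up to 0.683 CPM, Cox8b at up to 0.600 CPM and Cox7a1 at up to 1.39 CPM in any library. Their broadly expressed partners Cox6a1, Cox8a and Cox7a2 averaged 17.0 ± 6.20, 44.2 ± 10.8 and 36.5 ± 13.6 CPM in B16F10 and 17.1 ± 5.45, 49.2 ± 13.3 and 39.8 ± 11.6 CPM in B16F0. Cox7a2l, a factor of supercomplex assembly, averaged 91.5 ± 22.2 CPM in B16F10 and 99.0 ± 28.4 CPM in B16F0.

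The remaining Cox forms followed the same order. Cox6b1 averaged 70.7 ± 26.6 CPM in B16F10 and 75.7 ± 29.3 CPM in B16F0, and the testis form Cox6b2 0.117 ± 0.135 CPM in B16F10 and 0.0970 ± 0.110 CPM in B16F0. Cox7b averaged 203 ± 79.1 CPM in B16F10 and 209 ± 40.6 CPM in B16F0, and Cox7b2 0.340 ± 0.359 CPM in B16F10 and 0.0419 ± 0.0937 CPM in B16F0. Cox8c was counted 7 times in all, and 0 times in B16F0. Of the 3 genes for the c subunit of the ATP synthase ring, which make the same mature protein, Atp5g3 led with 78.2 ± 23.7 CPM in B16F10 and 70.9 ± 24.3 CPM in B16F0. Atp5g1 averaged 1.54 ± 0.362 CPM in B16F10 and 1.76 ± 0.647 CPM in B16F0, and Atp5g2 0.780 ± 0.333 CPM in B16F10 and 1.00 ± 0.620 CPM in B16F0. Atp5g1 and Atp5g2 shared stretches of 50 bases with 6 and 2 pseudogenes, and Atp5g3 with none. The part of this sharing in the order of the 3 genes was not tested. Atp5k, the e subunit of the ATP synthase, averaged 54.3 ± 27.9 CPM in B16F10 and 48.8 ± 17.6 CPM in B16F0.

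Ndufa4, now counted as a complex IV subunit, averaged 75.8 ± 29.6 CPM in B16F10 and 78.4 ± 25.9 CPM in B16F0. Its hypoxia-induced relative Ndufa4l2, which is also known from pericytes, was at 2.24, 3.10, 1.09, 0.593, 0.927, 0.789 and 0.758 CPM in B16F10 replicates 1 to 7 and at 0.736, 0.544, 0.938, 0.902 and 0.210 CPM in B16F0 replicates 1 to 5. Only B16F10 replicates 1 to 3 stood above every B16F0 library, and replicates 1 and 2 had the highest scores of mural markers (5.28 and 5.5, mean log2 CPM) and the most background reads. The part of either in the level of Ndufa4l2 was not tested. The count threshold passed just below Atp5g2 (129 counts), Ndufa4l2 (151) and Atp5l (159), while Cox4i2 (85 counts), Cox7a1 (77), Cox6a2 (29), Cox7b2 (22), Cox8b (20), Cox6b2 (17), Cox8c (7) and Ndufs5 (0) fell short of it. Ndufs5 is a complex I subunit gene, and 31.1% of its stretches of 50 bases also occurred in 1 pseudogene. Its count of 0 does not show that the gene was silent, and the part of the counting in it was not tested.

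The comparison of the tumour lines asked which ribosome-bound transcripts differ between highly and poorly metastatic tumours. None of the 86 members passed. By edgeR (quasi-likelihood F test, lane as a factor, Benjamini-Hochberg adjustment over all genes), 0 members were higher and 0 lower in B16F10, where 1.3% and 1.47% of all 13534 tested genes were called, 2.77% in all. At an unadjusted p under 0.05 there were 3 members (Ndufaf4, Ndufaf6 and Cycs), against 14.8% of all genes. DESeq2 called Ndufaf4 alone as higher and none as lower, beside 3.01% and 3.29% of all genes, and limma-voom called 0 members. The median log2 fold change of the members was -0.01, with 39 above and 47 below 0, beside a median of 0.02 over all tested genes. No member had all libraries of one line above all of the other, as 2.73% of tested genes did.

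**Figure D2:**
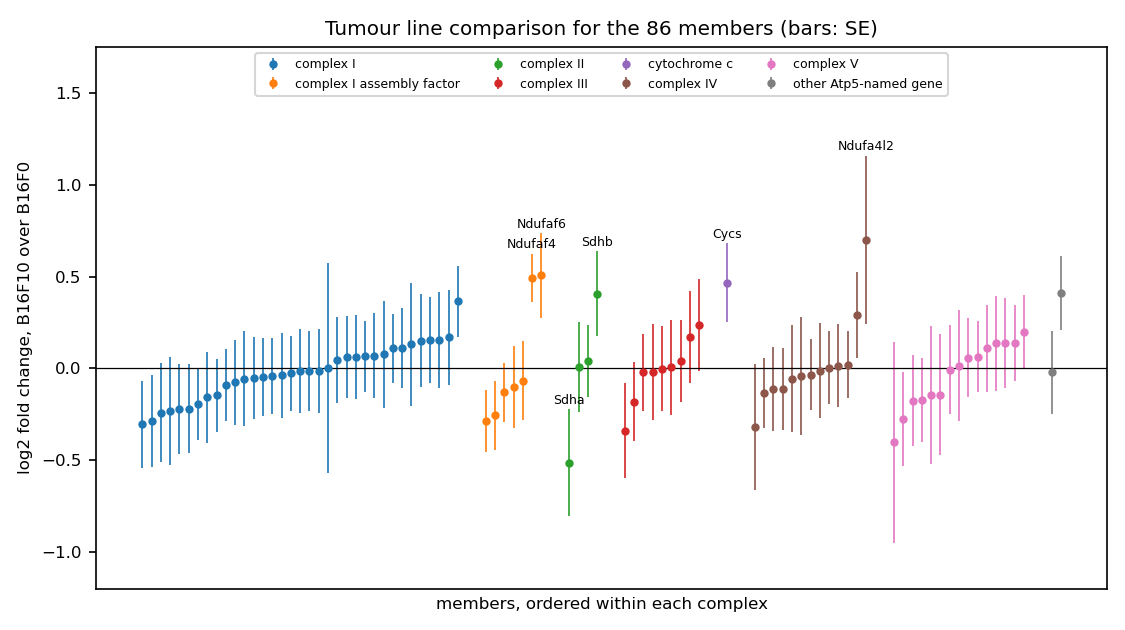
Log2 fold change of each member, B16F10 over B16F0, from edgeR with the lane in the fit (points; bars are standard errors), ordered by size within each complex. Most points lie near 0 and none passed the adjusted threshold; the highest is Ndufa4l2 (0.70 ± 0.46) and the lowest Sdha (-0.51 ± 0.29).

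The member nearest to a call was Ndufaf4, an assembly factor of complex I (chromosome 4, 24898083 to 24905001, GRCm38). It stood at 41.4 CPM at the lowest, 46.2 at the median and 62.8 at the highest in the 7 B16F10 libraries, and at 30.6, 36.2, 29.5, 36.8 and 44.2 CPM in B16F0 replicates 1 to 5. One B16F0 library, replicate 5, reached into the B16F10 range. In edgeR it was higher by 0.49 ± 0.13 (log2, SE) without passing (adjusted p = 0.0715), and mean log2 CPM was higher in B16F10 in each lane, by 0.59, 0.49 and 0.40 in lanes 1, 2 and 6. The call passed with DESeq2 (adjusted p = 0.0119), with upper quartile scaling (edgeR, 0.0427), with the endothelial score as a covariate (edgeR, 0.0219) and without B16F10 replicate 5 (edgeR, 0.0257), within a range of 0.0119 to 0.551 over 29 other settings.

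The other members with small p had adjusted values of 0.326 or more in edgeR's test. Cycs, the cytochrome c that carries electrons to complex IV, was at 20.7, 31.3 and 46.7 CPM at the lowest, median and highest in B16F10 and at 18.3, 24.9 and 31.1 CPM in B16F0. The lines overlapped, and edgeR gave 0.47 ± 0.21 (log2 fold change, SE) at an adjusted p of 0.331. Ndufaf6, another complex I assembly factor, averaged 9.11 ± 2.59 CPM in B16F10 and 6.41 ± 0.824 CPM in B16F0 (0.51 ± 0.23, SE; edgeR adjusted p = 0.326). The complex I subunit Ndufb6 averaged 14.3 ± 3.73 CPM in B16F10 and 11.5 ± 2.79 CPM in B16F0, while Atp5sl had a log2 fold change of 0.41. The assembly factors Ndufaf1 and Ndufaf2 averaged 13.4 ± 2.92 and 10.6 ± 3.37 CPM in B16F10, against 16.6 ± 2.54 and 12.5 ± 1.05 CPM in B16F0.

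Fold changes of both signs occurred in each of the 5 complexes. Complex II oxidises succinate, with Sdha carrying the flavin and Sdhb the iron-sulfur clusters. Sdha (chromosome 13, 74322254 to 74350280) was at 209, 217, 649, 244, 158, 144 and 132 CPM in B16F10 replicates 1 to 7 and at 574, 752, 304, 165 and 163 CPM in B16F0 replicates 1 to 5. Sdhb (chromosome 4, 140961203 to 140979193) was at 117, 104, 237, 104, 85.4, 109 and 119 CPM in B16F10 replicates 1 to 7 and at 130, 131, 74.8, 68.2 and 77.8 CPM in B16F0 replicates 1 to 5. Both genes were highest in B16F10 replicate 3 among B16F10 libraries and in replicates 1 and 2 among B16F0 libraries, and the lines overlapped. The log2 fold changes were -0.51 ± 0.29 for Sdha and 0.41 ± 0.23 for Sdhb (SE; edgeR adjusted p = 0.456 and 0.461). With the prefix of the library name in place of the lane, Sdhb passed as higher in B16F10 (0.58, edgeR adjusted p = 0.0237). Sdhc and Sdhd had log2 fold changes of 0.04 and 0.01.

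**Figure D3:**
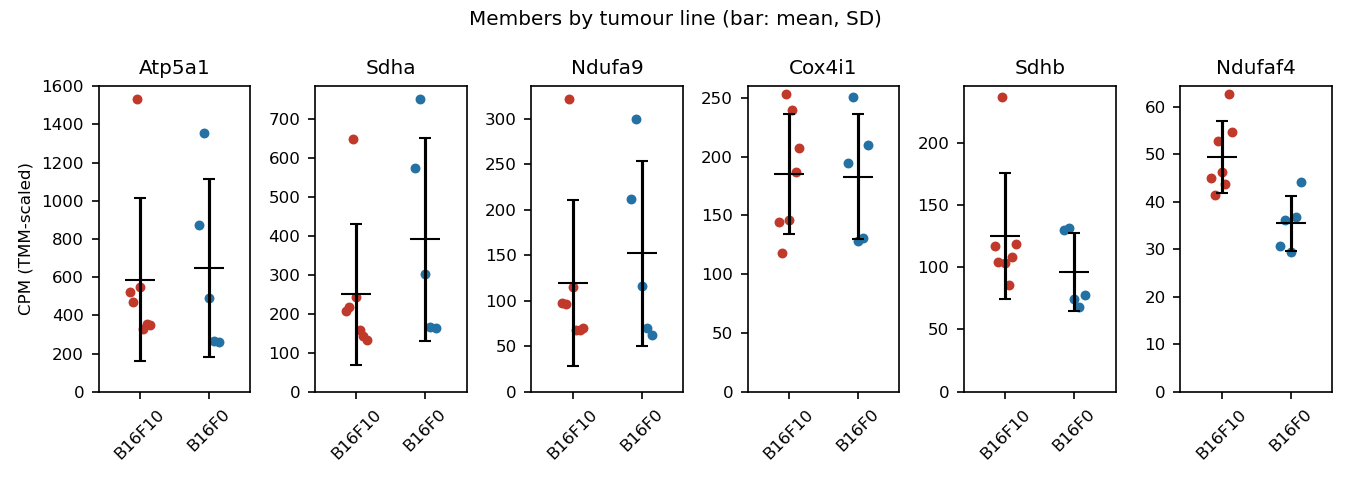
CPM of 6 members in each B16F10 library (left in each panel) and each B16F0 library (right), with mean and SD (horizontal and vertical bars). In Atp5a1, Sdha and Ndufa9 the highest point of each line is B16F10 replicate 3 and B16F0 replicate 2, while Ndufaf4 spans 41.4 to 62.8 CPM in B16F10 and 29.5 to 44.2 CPM in B16F0.

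The members' median difference between the lines had a different sign on lane 2 than on lanes 1 and 6. On lane 1, with 2 libraries of each line, the median difference of mean log2 CPM, B16F10 minus B16F0, was 0.10, and 59 members had a positive difference. On lane 2, with 2 B16F10 libraries and 1 B16F0 library, it was -0.62, and 76 of 86 differences were negative. The 2 B16F10 libraries of lane 2 have another library name prefix than the B16F0 library, so line and prefix cannot be told apart there. They also held 791 and 657 CPM of background reads, against 9.63 CPM in the B16F0 library. On lane 6, with 3 and 2, it was 0.21, and 70 differences were positive. Without lane 2 the median log2 fold change of the members in edgeR was 0.19, with 72 above 0 and 0 called. With the library name prefix in place of the lane it was 0.18, with 70 above 0 and 1 called higher, beside 325 of 13534 genes. The melanocytic score was 8.37 ± 0.265 in B16F10 and 8.70 ± 0.246 in B16F0 (mean log2 CPM of 18 pigment cell genes; SD, n = 7 and n = 5). Of those genes 15 had negative fold changes, and the melanosome transporter gene Oca2 was called lower in B16F10 (-1.10, edgeR adjusted p = 0.00379), so the score itself moves with the line and the fit with it does not separate cell content from line. With that score as a covariate, 8 members were called higher and 0 lower in B16F10, where 2.27% and 2.05% of all genes were called, and the members' median log2 fold change was 0.36. They were Sdhb (0.86, edgeR adjusted p = 0.00506), the assembly factors Ndufaf4 (0.59) and Ndufaf6 (0.88), the complex I subunits Ndufs1 (0.71) and Ndufb6 (0.68), the complex III subunits Uqcrc2 (0.50) and Uqcr10 (0.67), and Atp5o (0.65), which joins the head of the ATP synthase to its stalk.

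Across libraries 55 members rose with the melanocytic score. With lane and line in the fit, 55 of 86 slopes on that score were positive and passed edgeR's test (Benjamini-Hochberg, 0.05), and 0 were negative and passed. Over all tested genes 15.5% passed as higher and 16.9% as lower with the score, and of the 9054 whose mean reached 10 CPM 22.2% and 13.4%. The median slope of the members was 1.23 (log2 CPM per unit of score), against -0.02 over all genes, and 83 of the 86 slopes were positive. All 7 core subunits and 17 of 28 accessory subunits of complex I passed, as did 4 of 4 of complex II, 7 of 9 of complex III, 8 of 13 of complex IV, 9 of 15 of complex V and 3 of 7 assembly factors, whose 7 slopes were all positive. Differences between these groups were not tested. Cycs had a slope of 0.84 (edgeR adjusted p = 0.141). Of the 11 members with a mean under 10 CPM, 1 passed. The 18 genes that make up the score did not all follow it: 12 passed as higher and 16 had positive slopes. Mitf and Mc1r had slopes of 0.07 and -0.07. Ednrb had a slope of -2.21 and was called higher with the endothelial score (0.97, edgeR adjusted p = 0.000588). The score is therefore no uniform measure of pigment cell content.

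The 6 steepest slopes came from complexes I, II, IV and V. Atp5a1 had a slope of 2.08 ± 0.34 (SE; edgeR adjusted p = 0.00243) and Ndufa9, an accessory subunit of complex I (chromosome 6, 126821721 to 126849136), one of 2.08 ± 0.30 (0.00173). Sdha followed with 1.95, Ndufs1, the largest subunit of the electron input module of complex I, with 1.87, Ndufa4 with 1.84 and Atp5o with 1.79 (edgeR adjusted p of 0.0035 or less). Atp5a1 was at 523, 471, 1532, 550, 327, 356 and 351 CPM in B16F10 replicates 1 to 7 and at 875, 1354, 493.1, 266 and 261 CPM in B16F0 replicates 1 to 5. Ndufa9 was at 97.3, 96.3, 321, 115, 68.1, 68.2 and 70.5 CPM in B16F10 replicates 1 to 7 and at 211, 300, 117, 69.9 and 62.4 CPM in B16F0 replicates 1 to 5. In both genes B16F10 replicate 3, B16F0 replicate 2 and B16F0 replicate 1 were the highest libraries, and these 3 also had the highest melanocytic scores (8.919, 8.998 and 8.918). The lowest slopes were those of Atp5g2 (-1.40), Atp5l (-0.30) and Ndufa4l2 (-0.23), all under 160 counts in total, and of Atp5sl, Ndufaf1 and Ndufaf4 (0.27, 0.27 and 0.31), and none of the 6 passed.

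The calls on the melanocytic score depended on which libraries and covariates were in the fit. In fits added after seeing the data, without B16F10 replicate 3 and B16F0 replicate 2, 0 members and 0 of all genes passed in either direction, while 80 slopes were positive, the median was 1.34 and 35 of 86 had an unadjusted p under 0.05, as did 3649 of 13716 genes. With background reads as a further covariate 0 members and 0 genes passed as well (median slope 1.10, 80 positive), and 26 of 86 members had an unadjusted p under 0.05, as did 2798 of 13534 genes. With the endothelial score as a covariate 29 members passed, beside 7.26% of all genes. Of 12 macrophage markers, none at 0 in all libraries, 1 passed as higher with the melanocytic score and 11 slopes were positive. Their summed level was 119, 175, 261, 118, 87.6, 82.9 and 30.0 CPM in B16F10 replicates 1 to 7 and 280, 217, 103, 60.1 and 65.3 CPM in B16F0 replicates 1 to 5. It was highest in the 3 libraries with the highest sums of members, while B16F10 replicate 7, next after replicate 3 in members, was lowest. Its part in the result was not tested.

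On the endothelial score the members leaned the other way. Of the 86 slopes 81 were negative, with a median of -0.25, and 3 members passed as lower with the score and 0 as higher, where 0.399% and 4.42% of all genes passed (0.541% and 4.53% of those reaching 10 CPM). They were Ndufb2 (-0.47, edgeR adjusted p = 0.0116), Atp5j (-0.47, 0.0127), a coupling subunit of the ATP synthase stalk, and Uqcr10 (-0.44, 0.0373). Ndufc1 (-0.61), Cox7b (-0.48) and Ndufa4 (-0.43) had slopes of similar size without passing (edgeR adjusted p = 0.0529, 0.207 and 0.0761). The 6 highest slopes were Ndufa4l2 (0.13), Ndufa7 (0.09), Ndufa8 (0.06), Atp5sl (0.05), Atp5g2 (0.02) and Ndufaf2 (-0.04). The count of lower members was 37 without the libraries rich in Rn45s, B16F10 replicate 5 and B16F0 replicate 5, and 19 without lane 2. Over all genes lower calls numbered 54 with all libraries, 1170 of 13842 without the Rn45s-rich libraries and 275 of 13394 without lane 2. The count of members was 22 without B16F10 replicate 5 alone, 30 without B16F0 replicate 1, 15 without B16F0 replicate 5, 1 without B16F10 replicate 4 and 0 without B16F0 replicate 3. Without B16F10 replicate 3 and B16F0 replicate 2 it was 0 (3 of 13716 genes), and 28 slopes were positive. Calls over all genes are not given for the fits without 1 library, so those counts do not set the members apart from other genes.

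**Figure D4:**
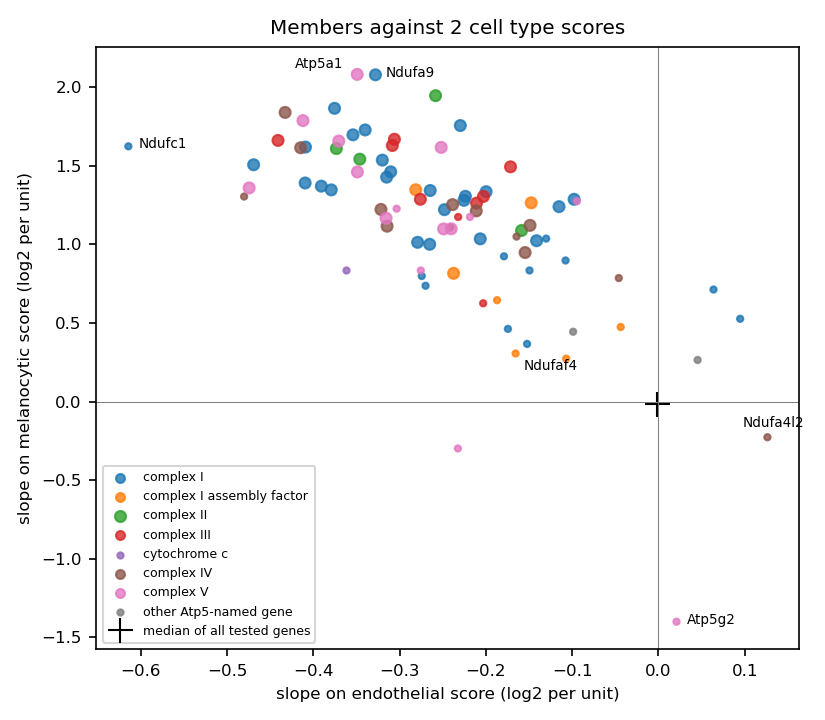
Slope of each member on the endothelial score (x axis) and on the melanocytic score (y axis), both in log2 CPM per unit of score with lane and line in the fit; large points passed on the melanocytic score and the cross is the median of all tested genes. Most members lie in the upper left, with Atp5a1 and Ndufa9 (2.08 each) at the top and Atp5g2 (-1.40) at the bottom.

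On the score of mural cells, the pericytes and smooth muscle cells of vessel walls, 32 members passed as lower and 0 as higher, beside 7.11% and 8.46% of all genes, and 10.4% and 4.78% of those reaching 10 CPM. The mural markers did not follow this score alone. Of 11 tested, 3 were called higher with the endothelial score and 4 lower with the melanocytic score. The mural score was highest in B16F10 replicates 1 and 2, which also held the most background reads, so it is no uniform measure of mural cell content. Fibroblast markers followed the mural score too, with 5 of 8 called as higher and a median slope of 1.405, against 7 of 11 and 0.97 for the mural markers themselves. None of the 8 was at 0 in all libraries, and their sums were 164 to 2369 CPM in B16F10 libraries, highest in replicates 1 and 2, and 160 to 857 CPM in B16F0 libraries. Their part in the result was not tested. The steepest were Ndufa9 (-0.79, edgeR adjusted p = 0.0336), Atp5a1 (-0.79, 0.0406), Ndufa5 (-0.75, 0.0218) and Sdha (-0.74, 0.046). At the other end Atp5g2 had a slope of 1.161 (edgeR adjusted p = 0.0912), Ndufa4l2 0.64 (0.256), Ndufab1 0.11 and Ndufaf1 0.04. The count of lower members was 0 without either B16F10 replicate 1 or B16F0 replicate 3, and 3, 5, 6, 8, 10 and 10 without B16F10 replicate 3, B16F0 replicate 5, B16F10 replicate 2, B16F10 replicate 7, B16F10 replicate 6 and B16F0 replicate 1. It was 8 without lane 2 (104 of 13394 genes) and 7 without B16F10 replicate 3 and B16F0 replicate 2 together (245 of 13716 genes). It was 1 without the lane term and 0 with background reads as a covariate (0 of 13534 genes). Calls over all genes are not given for single left-out libraries or for the fit without the lane term. Those counts therefore do not tell whether the members changed apart from other genes.

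Libraries of 2 name series were set side by side, which is described here after seeing the data and without a test. B16F10 replicate 3 and B16F0 replicate 2 share one prefix, and B16F10 replicates 5 to 7 and B16F0 replicates 4 and 5 form the series of lane 6. The shared-prefix pair was known to have the highest sums of members (12180 and 11160 CPM), so higher members in it are partly given by that choice. It also had the highest melanocytic scores (8.919 and 8.998), and prefix and score cannot be told apart here. B16F0 replicate 1, of another prefix, came next in both (8903 CPM and 8.918). Of the 86 members 50 lay higher in both libraries of the shared prefix than in all 5 of lane 6, and 1 (Ndufab1) lay lower in both, beside 24.6% and 24.5% of all tested genes. The ratio of mean CPM had a median of 1.41 over the members and 0.977 over all genes, and 20 members reached 2 or more, as did 8.24% of all genes. Atp5a1 was at 1354 and 1532 CPM in the shared-prefix pair and at 261 to 356 CPM on lane 6, a ratio of 4.62. Sdha had a ratio of 4.59, Ndufa9 4.58, Cyc1, the cytochrome c1 of complex III, 3.63, Uqcrc2, a core protein of complex III, 3.33, Ndufv1, the NADH-binding subunit of complex I, 3.25, and Atp5b, the catalytic beta subunit of the ATP synthase, 3.03. At the low end were Atp5l (0.570), Atp5k (0.661), Ndufab1 (0.679), Atp5g2 (0.721) and Uqcrq (0.726).

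Members with long coding sequences had the higher ratios. Among the 85 members with an annotated coding sequence, the 21 longest (768 to 2181 bases) had a median ratio of 2.19, and 13 of them reached 2. In the other 3 groups by length, with coding sequences of 156 to 315, 324 to 447 and 453 to 744 bases, the median ratios were 1.24, 1.35 and 1.41. Across these members Spearman's rho of ratio and coding length was 0.45, while over 8663 tested genes of at least 10 CPM it was -0.24, and genes within the 4 length ranges had medians of 1.12, 1.15, 1.22 and 1.15. The genes share their libraries and the ratio is that of 2 libraries to 5, so these values describe the libraries only. The median slope on the melanocytic score was also highest in the longest group, at 1.54, against 1.12, 1.14 and 1.18 in the others.

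**Figure D5:**
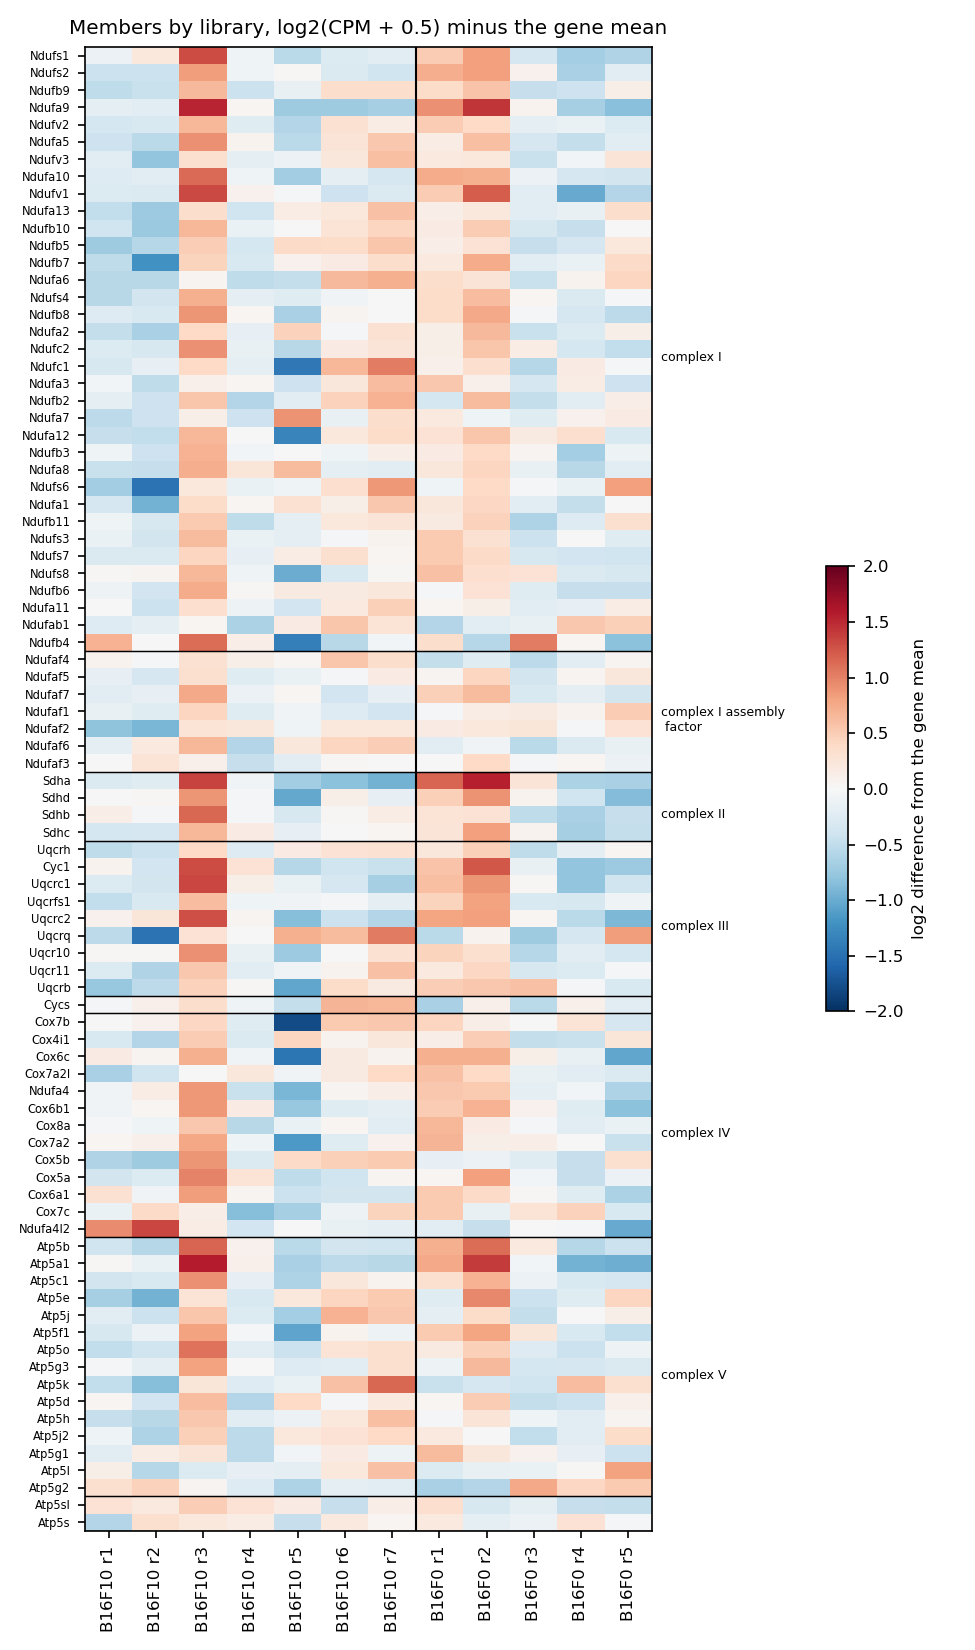
Level of each member in each library as log2(CPM + 0.5) minus the mean of that gene over the 12 libraries (colour), with members grouped by complex and the 7 B16F10 libraries left of the 5 B16F0 libraries. B16F10 replicate 3 and B16F0 replicate 2 are red over most rows (84 and 72 of 86 members above their own mean).

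The levels of members were also compared over single libraries, as a description. The log2 level of a member correlated with the median of the other members at a median r of 0.69 over the 12 libraries, which share depth, scaling and differences in cell content. Of the 75 members reaching a mean of 10 CPM, the median was 0.73 and 89.3% had an r of at least 0.5. Over 8979 other genes of that level, the median r with the median of the members was 0.22, and 33.9% reached 0.5. Atp5o (0.96), Atp5c1, the gamma subunit of the rotor (0.95), and Ndufa5 (0.94) were most like the rest. Atp5g2 (-0.53), Ndufa4l2 (-0.29), Ndufab1 (-0.11) and Atp5l (-0.10) were least like it, and the 11 members under 10 CPM had a median r of 0.18. Ndufaf4, at a mean of 43.7 CPM, had an r of 0.17. Subtracting the median of the others lowered the SD of log2 levels in 72 of 86 members, with a median SD of 0.34 after it and 0.45 before.

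The promoters were searched for the sites named above. Promoters of 300 bases (250 before and 50 after the RefSeq start) were at hand for 72 members and for 17492 genes in all. On either strand a form of the NRF1 site, GCGCA followed by any base and GCGC, was found in 17 members (23.6%) and in 6.6% of all promoters. AANATGGC, a form of the YY1 site, was found in 17 (23.6%) and 6.69%, and CCGGAAG, the core bound by ETS factors, in 16 (22.2%) and 11.9%. At least 1 of these 3 was present in 44 members (61.1%) and in 22.2% of all promoters. AAGGTCA, bound by nuclear receptors of the ERR type, was in 7 (9.72%) and 4.08%, and the E-box CACGTG in 7 (9.72%) and 7.9%. A match describes letters only and is no evidence of binding.

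Motif counts were also set beside the slopes. Of the 46 members with a promoter that passed as higher with the melanocytic score, 10 held the NRF1 form, 12 the ETS core and 11 the YY1 form, against 7, 4 and 6 of the 26 others. The difference was not tested.

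The promoters of 5 members are shown, from RefSeq (GRCm38.p6), each 5′ to 3′ on the strand of its gene. Matches of the NRF1, ETS, YY1 and ERR forms on either strand are in capitals. All 5 hold a match, while an NRF1, ETS or YY1 form was found in 44 of 72 members, so the 5 do not stand for the members as a whole. Sdha (chr13:74350191-74350490, minus strand) has 3 NRF1 forms, and Ndufaf4 (chr4:24897833-24898132, plus strand), nearest to a call between the lines, has 1. Sdhd (chr9:50603800-50604099, minus strand) has an NRF1 form, an ETS core and an ERR form. Ndufa9 (chr6:126849095-126849394, minus strand) and Atp5b (chr10:128083057-128083356, plus strand), with ratios of 4.58 and 3.03 between the library series, have 1 YY1 form each, after the start. No 2 of these matches of different motifs overlap.
Sdha: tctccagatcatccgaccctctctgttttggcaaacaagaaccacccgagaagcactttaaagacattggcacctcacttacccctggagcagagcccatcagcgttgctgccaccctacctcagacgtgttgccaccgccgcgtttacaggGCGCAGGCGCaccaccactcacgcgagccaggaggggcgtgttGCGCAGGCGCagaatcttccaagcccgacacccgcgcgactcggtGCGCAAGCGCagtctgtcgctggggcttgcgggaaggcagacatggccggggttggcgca
Ndufaf4: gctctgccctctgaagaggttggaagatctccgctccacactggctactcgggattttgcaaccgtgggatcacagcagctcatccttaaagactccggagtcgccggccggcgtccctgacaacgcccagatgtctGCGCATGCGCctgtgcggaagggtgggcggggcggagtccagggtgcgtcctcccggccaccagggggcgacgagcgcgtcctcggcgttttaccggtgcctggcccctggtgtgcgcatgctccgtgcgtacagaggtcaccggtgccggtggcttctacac
Sdhd: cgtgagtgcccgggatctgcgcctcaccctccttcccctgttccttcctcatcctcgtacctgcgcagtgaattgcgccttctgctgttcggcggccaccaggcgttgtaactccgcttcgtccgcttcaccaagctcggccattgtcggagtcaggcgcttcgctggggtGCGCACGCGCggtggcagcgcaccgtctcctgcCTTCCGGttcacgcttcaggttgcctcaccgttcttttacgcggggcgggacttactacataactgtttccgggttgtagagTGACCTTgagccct
Ndufa9: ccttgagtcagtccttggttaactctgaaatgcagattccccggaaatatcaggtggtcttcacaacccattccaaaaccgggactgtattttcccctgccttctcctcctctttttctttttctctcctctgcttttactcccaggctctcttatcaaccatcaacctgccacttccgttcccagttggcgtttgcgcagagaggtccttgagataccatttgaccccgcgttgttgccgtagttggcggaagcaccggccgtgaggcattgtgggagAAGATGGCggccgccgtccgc
Atp5b: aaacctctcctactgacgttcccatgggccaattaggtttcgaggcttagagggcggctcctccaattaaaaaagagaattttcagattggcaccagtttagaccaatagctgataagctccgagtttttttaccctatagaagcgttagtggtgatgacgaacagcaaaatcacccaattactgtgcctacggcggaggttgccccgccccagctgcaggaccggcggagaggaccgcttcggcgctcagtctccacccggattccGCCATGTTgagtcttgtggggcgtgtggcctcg

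Of the regulators known to act on these genes, 2 of 23 tested passed between the lines. Ppargc1a, which encodes a coactivator of mitochondrial biogenesis, was at 303, 398, 368, 162, 330, 443 and 364 CPM in B16F10 replicates 1 to 7 and at 68.8, 124, 71.1, 133 and 169 CPM in B16F0 replicates 1 to 5. All B16F10 libraries but replicate 4 lay above every B16F0 library, and edgeR gave 1.59 ± 0.26 (log2 fold change, SE) at an adjusted p of 0.00504. Ppara, a nuclear receptor of fatty acid oxidation, averaged 2.97 ± 1.13 CPM in B16F10 and 0.519 ± 0.239 CPM in B16F0, with the lines apart (2.38 ± 0.37, SE; edgeR adjusted p = 0.00389). Esrra, the ERR alpha receptor, averaged 17.1 ± 3.05 CPM in B16F10 and 12.5 ± 2.59 CPM in B16F0 (0.47, edgeR adjusted p = 0.228). Nrf1, Gabpa and Yy1 had log2 fold changes of 0.11, 0.01 and 0.32, and Tfam, the mitochondrial DNA packaging and transcription factor, 0.02, and none of them passed (edgeR adjusted p of 0.381 or more). The slope of Ppargc1a on the melanocytic score was 0.90 (edgeR adjusted p = 0.186), and that of Nrf1 was -0.10.

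Other lists were set beside the members on the melanocytic score, where 15.5% of all genes and 22.2% of those reaching 10 CPM passed as higher. There, 18 of 20 genes of the tricarboxylic acid cycle passed as higher, among them citrate synthase, Cs (1.42, edgeR adjusted p = 0.00364). Of 77 mitochondrial ribosomal protein genes 50 passed, of 13 carriers 10, of 30 import genes 16, of 46 assembly factors outside the naming rule 13, of 10 antioxidant enzymes 5, of 22 glycolysis genes 10 and of 23 regulators 4, all as higher, while 1 regulator and 1 glycolysis gene passed as lower and none of the other lists. The adenine nucleotide carriers Slc25a4 and Slc25a5, which exchange ATP for ADP, had slopes of 1.57 and 1.90. The share was 64.0% among the members, 76.9% among carriers, 64.9% among mitochondrial ribosomal proteins and 53.3% among import genes. It was 28.3% among the other assembly factors and 17.4% among regulators, near the shares of all genes. Differences between lists were not tested. These calls too rest on the fit in which leaving out B16F10 replicate 3 and B16F0 replicate 2 left 0 genes called.

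Between the tumour lines these lists held 1 further call, the lactate exporter gene Slc16a3 of the glycolysis list, at 49.9 ± 15.9 CPM in B16F10 and 30.2 ± 8.02 CPM in B16F0 (0.77 ± 0.14, SE; edgeR adjusted p = 0.0103). It did not pass without the lane term (0.176) or without B16F0 replicate 4 (0.0517), within a range of 3.24e-05 to 0.349 over 29 settings. The smallest p among the others were those of Gsr, glutathione reductase (-0.57, edgeR adjusted p = 0.0831), and Nnt, which makes NADPH at the inner membrane (-0.59, 0.193), of Tomm20 (-0.49, 0.126) and Tomm5 (0.48, 0.274) of the import pore, and of Aldoc (-0.81, 0.128). In the tricarboxylic acid cycle they were Sucla2 (-0.48) and Pdhb (-0.37), among ribosomal proteins Mrpl50 (0.41) and Mrps16 (-0.48), among carriers Slc25a1 (-0.53) and Vdac2 (-0.45), and among assembly factors Sdhaf3 (-0.30) and Tmem126b (-0.36), none of which passed. Subunits encoded in mitochondrial DNA were not analysed here.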

How the data were processed

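RNA of tag precipitates, which also held RNA of the pigment lineage, was measured in 12 libraries, made with the ScriptSeq kit per the labels' protocols. The table deposited by the authors holds raw counts, whole numbers for each symbol. Per the submitters' processing notes, the build was mm10 and the tools were featureCounts 1.6.0, STAR 2.2.1, cutadapt 1.16, R 3.3.2 and edgeR. How strand was treated in counting, and which annotation served, is not given in the sources, and overlapping genes or near-identical copies may share reads. The authors' comparison table and their normalized table were not used.

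The 86 members, the gene lists and the tests were chosen with earlier results of these data known. Groups came from the labels and lanes from the library names. The 13534 genes that passed filterByExpr (minimum count 10) were fitted with edgeR 4.0.16 in R 4.3.3, with TMM scaling, lane and tumour line as factors, the quasi-likelihood F test and Benjamini-Hochberg adjustment over all genes at a false discovery rate of 0.05. CPM is scaled by TMM, and fold changes are B16F10 over B16F0. A cell type score is the mean log2 CPM of a marker list (prior count 2), and slopes come from the same test with lane, line and score in the model. The melanocytic list has 18 genes, the endothelial list 20 and the mural list 11 tested genes. Library totals of 5322510 to 20569186 counts limit the precision of members with few counts. All pairs of libraries within a line differed beyond sampling noise (chi-square test of their counts).

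Exon and coding lengths and coordinates came from GENCODE M21 (95.7% of the symbols found) and promoters from RefSeq (GRCm38.p6). In counts simulated once for 13368 genes, edgeR recovered 49 of 100 genes changed 2-fold and 87 of 100 changed 4-fold, with 6 false calls. DESeq2 1.42.0 recovered 64 and 91 with 32 false calls, and limma-voom (limma 3.58.1) 48 and 86 with 4. The slope test was simulated on the endothelial score only, with changes of 2-fold and 4-fold per unit of score. It recovered 76 and 99 of 100 genes each, with 13 false calls, on 13357 genes. That score had an SD of 0.99 over the 12 libraries, against 0.30 for the melanocytic score. These figures therefore do not carry over to slopes on the melanocytic score. The simulated counts held no lane effect.

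Named members were those with the 10 smallest p, the alternative forms of a subunit, those with the extreme slopes, those with the highest and lowest level per kilobase in each complex, and those nearest to the count threshold. Of each other list, called genes and the 2 with the smallest p were named. Other batch terms, scalings, filters, tools, covariates and left-out libraries were tried.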

Additional observations from a re-analysis of the deposited data

Results flagged for a closer look

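In 13 of 48 groups examined, 1 library stood apart from the others of its line by Dixon's test at the 95% level, and in each of the 13 it was B16F10 replicate 3, on the high side. The statistic is the gap between that library and its nearest neighbour divided by the range of the line, with a critical value of 0.568 for 7 libraries and 0.71 for 5. Chance flags about 1 in 20 groups, and the groups examined share their libraries. For the summed level of all members the statistic was 0.758, with 12180 CPM in B16F10 replicate 3 against 6822 CPM in the next library, a ratio of 1.79. It was 0.608 for complex I, 0.789 for complex II, 0.767 for complex III and 0.823 for complex V. Among single genes it was 0.815 for Atp5a1, 0.814 for Ndufa9, 0.785 for Sdha, 0.781 for Sdhb, 0.753 for Atp5b, 0.737 for Ndufs1, 0.681 for Ndufaf1 and 0.618 for Atp5o. The same library had the highest melanocytic score of its line (8.92) and few background reads (26.3 CPM). Their part in the flagged values was not tested.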

How the results depend on the processing

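The absence of called members held for lower members under all 29 other settings and for higher members under 22. In the other 7, members called higher in B16F10 numbered 1 with the library name prefix in place of the lane, upper quartile scaling, DESeq2, a false discovery rate of 0.1, the endothelial score as covariate and without B16F10 replicate 5, and 8 with the melanocytic score as covariate. Over all genes the higher and lower calls numbered 325 and 305 with the prefix, 407 and 445 with DESeq2, 289 and 354 at a false discovery rate of 0.1, 111 and 125 without the Rn45s-rich libraries and 96 and 81 without lane 2. The lower calls fell to 131 without the lane term and 132 with library size scaling, and the higher calls were 307 with the melanocytic score as covariate. Over the other lists, higher calls were 8 with the prefix and 12 with the melanocytic score, and lower calls were 1 with the prefix, 2 with DESeq2 and 1 at a false discovery rate of 0.1. Members lower with the endothelial score numbered 5 with RLE scaling or limma-voom and 0 without the lane term. They numbered 37 without the Rn45s-rich libraries (1170 of 13842 genes) and 19 without lane 2 (275 of 13394 genes). Without the shared-prefix libraries, a fit added after seeing the data, there were 0 (3 of 13716 genes). Members higher with the melanocytic score numbered 32 without lane 2 (1109 of 13394 genes). In fits added after seeing the data they numbered 0 without the shared-prefix libraries (0 of 13716 genes) and 0 with background reads (0 of 13534 genes). With the endothelial score as covariate there were 29 (983 of 13534 genes). Members lower with the mural score numbered 1 without the lane term and 8 without lane 2 (104 of 13394 genes). In fits added after seeing the data they numbered 7 without the shared-prefix libraries (245 of 13716 genes) and 0 with background reads (0 of 13534 genes). The cause of these changes was not tested.

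Leaving out each library in turn gave 0 to 1 members higher and 0 lower in B16F10, 104 to 199 and 99 to 247 genes, and 2 to 3 and 0 to 1 genes of the other lists. It gave 28 to 60 members higher with the melanocytic score, with the lowest counts without B16F10 replicate 3 (28) and without B16F0 replicate 3 (32), 0 to 30 lower with the endothelial score, and 0 to 46 lower and 0 to 1 higher with the mural score. Calls over all genes are not given for these score fits, so the ranges do not set the members apart from other genes. The fold change of Sdha reversed to 0.10 with the melanocytic score as covariate, and that of Ndufaf2 to 0.01 without lane 2. The 6 named slopes on the melanocytic score were 1.38 to 2.25 without the shared-prefix libraries and 1.73 to 2.12 with background reads, without passing.

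A replicate block on numbers 1 to 5 called 0 members, 20 genes higher and 19 lower, and 0 genes of the other lists, so that Ppargc1a (1.51, edgeR adjusted p = 0.172) and Ppara (2.52, 0.162) did not pass in it. The numbers did not pair the libraries, since same-numbered libraries had correlations of deviations of -0.27, -0.27, -0.24, -0.29 and 0.32, and 1 of 5 was most like its own number. Depth limits the genes of few counts most, such as Atp5g2 with 129 counts over all libraries.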
